A study of Homo sapiens with 14 samples.

Results

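The class I antigen presentation genes were followed through every group of an RNA-seq study of senescence in IMR90, a human lung fibroblast line. They are 9 genes chosen by name: the heavy chains HLA-B, HLA-C, HLA-E and HLA-F, the light chain B2M, the peptide transporter subunits TAP1 and TAP2, and the immunoproteasome subunits PSMB8 and PSMB9. These are 9 of 57791 genes in the tables of young and old cells, of 54628 gene symbols in the knockdown tables and of 38716 in the tables of inflachromene-treated cells.

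Class I molecules display short peptides from proteins made inside the cell to CD8+ T cells. The proteasome cuts the peptides, and PSMB8 and PSMB9 replace standard catalytic subunits in its immune form, which changes where it cuts. The TAP1/TAP2 transporter carries peptides into the endoplasmic reticulum, where they are loaded onto a heavy chain paired with the light chain, beta-2-microglobulin. HLA-B and HLA-C present peptides widely, while HLA-E mainly displays leader peptides of other class I chains and is read by inhibitory receptors of natural killer cells. Interferons and NF-kB are the best known inducers of the pathway, and senescent fibroblasts are known to interact with both kinds of lymphocyte.

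Poly(A)+ RNA had been sequenced from 7 groups, each with 2 titled samples. I79 and I10 are isolates of IMR90, and each was sampled young (low passage, proliferating) and old (high passage, replicatively senescent). I79 cells were also treated with inflachromene (ICM), a compound known as a ligand of the HMGB1 and HMGB2 chromatin proteins. The remaining groups were IMR90 cells labelled WT and IMR90 cells with siRNA knockdown of HMGB2 (HMGB2 KD). For each young or old group 1 table covers both titles, and whether it pools them is not stated, so each isolate gives 1 column per state and the isolates served as the replicates. The labels name no ICM dose or time for these samples, no isolate and no control siRNA for WT and HMGB2 KD, and no separate cultures for the replicates, so p-values measure only the spread between these samples, which may be technical.

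The young and old columns held between 14991385 and 20632959 estimated counts, the ICM libraries 13290131 and 10971132 reads, and the WT and HMGB2 KD libraries between 33561766 and 41168932 counts. Fibroblast markers were high throughout: their 9 genes summed to between 22700 and 30500 CPM (counts scaled per total library size) in the young and old columns and to between 18900 and 33800 CPM in the WT and HMGB2 KD libraries, and none was at or under 3 counts. HMGB2 itself fell in HMGB2 KD, by a log2 of 2.99 (SE 0.16, with an edgeR quasi-likelihood adjusted p of 8.28e-07), from 27.1 and 27.3 CPM to 3.22 and 3.64 CPM.

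On GRCh37, the build of these files, 8 of the genes lie in the major histocompatibility complex (MHC) on chromosome 6. HLA-F spans 29690552 to 29706305 and HLA-E 30457286 to 30461971, both on the plus strand. HLA-C (31236526 to 31239907) and HLA-B (31321649 to 31334844) are on the minus strand. The transporter and immunoproteasome genes form a tight cluster, with TAP2 from 32789610 to 32806516 (minus), PSMB8 from 32808494 to 32812456 (minus), PSMB9 from 32811913 to 32827628 (plus) and TAP1 from 32812986 to 32821593 (minus). B2M lies apart, on the plus strand of chromosome 15 from 45003556 to 45011049. The annotated span of PSMB9 overlaps PSMB8 and TAP1, and TAP2 overlaps a readthrough gene on its own strand. Use of strand in the counting is not given in the sources used here, so reads of overlapping genes could have been shared, and the heavy chains are so alike that reads could move between them.

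In young cells the pathway was carried by a large pool of light chain and moderate heavy chain mRNA. Levels here are in TPM, transcript abundance per length, which allows genes to be compared. B2M stood at 1525 TPM in I79 young and 1388 TPM in I10 young. HLA-B followed at 137 and 128 TPM, HLA-E at 83.8 and 86.5 TPM, HLA-C at 55.1 and 57.1 TPM and PSMB8 at 43.4 and 40.7 TPM. This order was the same in all 4 young and old columns. PSMB9 (18.4 and 16.7 TPM) and TAP1 (17.1 and 18.7 TPM) changed places between the young isolates and so did not differ beyond their spread. TAP2 was low at 6.95 and 7.52 TPM. HLA-F, whose product is mostly known from lymphoid cells, was near absent, with 0 estimated counts in I79 young and 1 in I10 young.

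The young isolates were close to each other. Of the 8 genes tested, 0 had a log2 difference above 0.6 between I10 young and I79 young, where 8.0% of all tested genes did. The widest gap was in B2M, at -0.16 (I10 minus I79). There is 1 column per group here, so no test was made.

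**Figure D1:**
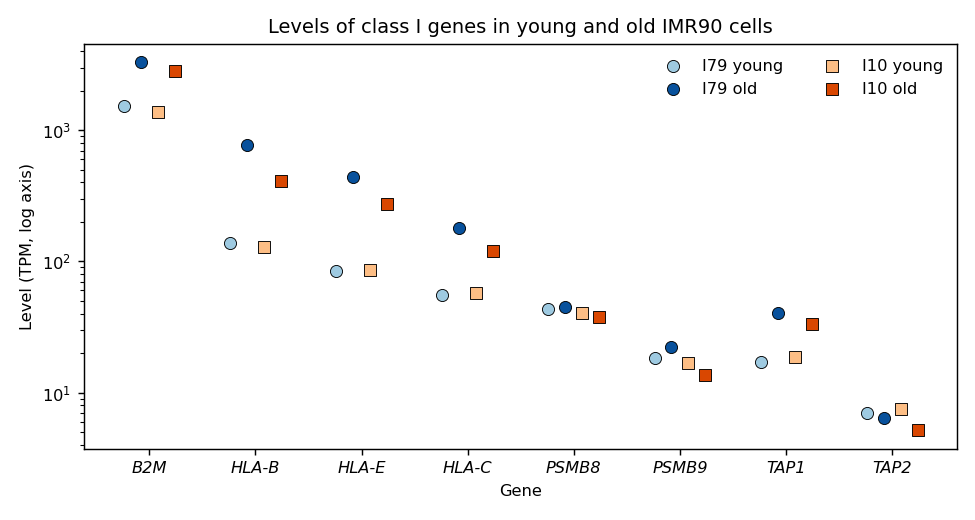
Levels of 8 class I genes (TPM, log axis) in the young and old columns of isolates I79 (circles) and I10 (squares), 1 point per column and no error bars; HLA-F, at most 0.53 TPM, is left out. The old points of B2M, HLA-B, HLA-E, HLA-C and TAP1 stand above both young points, while those of PSMB8, PSMB9 and TAP2 lie among or beside them.

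The comparison of old with young cells asks how the class I genes change at replicative senescence. The heavy chains, the light chain and 1 transporter subunit rose, and the immunoproteasome subunits and the other transporter subunit did not pass the test. Of the 9 genes, 8 passed the filter on low counts and 5 of these were called higher, where 9.57% of 15116 tested genes were called and 5.75% were called higher. A call needed both an adjusted p below 0.01 and a log2 change of over 0.6 either way. The median log2 fold change was 1.28 over the 8 genes and -0.01 over all tested genes. In 6 of the 8, both old columns stood above both young columns in CPM, as in 36.5% of all tested genes. These were the 5 called genes and PSMB8. In TPM, PSMB8 in I10 old (37.6) lay below both young columns (43.4 and 40.7). The genes were chosen with earlier results of these data known, so these shares do not measure enrichment.

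HLA-B, a classical heavy chain, stood at 113 CPM in I79 young and 103 CPM in I10 young, against 706 CPM in I79 old and 391 CPM in I10 old. The old columns were far above the young, and I79 old was the highest. Over both isolates HLA-B rose by a log2 of 2.28 (4.86-fold, SE 0.21, adjusted p 0.00503 by edgeR). The rise was 2.64 within I79 (95% counting interval 2.57 to 2.72) and 1.92 within I10 (1.85 to 1.99). These intervals, exact and from read counts, cover counting error only.

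HLA-E, the ligand of natural killer cell inhibitory receptors, followed HLA-B closely. It stood at 121 CPM in both young columns, at 717 CPM in I79 old and at 456 CPM in I10 old, so the groups did not overlap. The rise was 2.24 on the log2 scale (4.72-fold, SE 0.20, adjusted p 0.00477), with 2.56 within I79 and 1.92 within I10. The TPM ratio of HLA-E to HLA-B stayed between 0.574 and 0.674 in the 4 columns.

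HLA-C rose less, by a log2 of 1.57 (2.97-fold, SE 0.16, adjusted p 0.00576). It stood at 46.2 and 46.9 CPM in the young columns, at 165.5 CPM in I79 old and at 116 CPM in I10 old, again without overlap. The TPM ratio of HLA-B to HLA-C was 2.49 and 2.25 in young and 4.3 and 3.4 in old cells of I79 and I10. Within HLA-C, the transcript HLA-C-202, annotated as a target of nonsense-mediated decay, was listed at 0 estimated counts in both young columns and at 410 in I79 old and 261 in I10 old. The protein-coding transcripts HLA-C-201 and HLA-C-203 were present in all 4 columns, and protein-coding transcripts made up 98.0% and 97.3% of HLA-C TPM in young and 85.1% and 86.2% in old cells of I79 and I10. Transcripts of HLA genes are close in sequence, and this estimate was not tested.

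HLA-H, a class I pseudogene that can exchange reads with the heavy chain genes, differed by 2.44 on the log2 scale, just short of a call by edgeR (adjusted p 0.0101) and called by DESeq2 (adjusted p 1.69e-06). HLA-F, which was below the filter, had 0 and 1 counts in the young columns and 5 and 6 in the old ones, and HLA-G had at most 1 count.

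B2M, the light chain shared by these heavy chains, stood at 448 and 401 CPM in young and at 1076 and 970 CPM in old cells of I79 and I10. It rose by a log2 of 1.27 (2.41-fold, SE 0.13, adjusted p 0.00592), and the isolates gave nearly the same value (1.26 and 1.27). In I79 the summed TPM of HLA-B, HLA-C and HLA-E was 0.181 times that of B2M in young and 0.422 times in old cells. In I10 the ratio was 0.196 in young and 0.283 in old cells, so heavy chain mRNA was larger relative to light chain mRNA in the old column of each isolate. Nearly all B2M reads were assigned to transcripts that the annotation marks as nonsense-mediated decay targets, chiefly B2M-209 and B2M-201, and protein-coding transcripts took only between 0.103% and 0.304% of its reads. Restricted to those, B2M gave 1.90 and was not called (adjusted p 0.055).

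TAP1, the transporter subunit encoded beside PSMB9, stood at 24.2 and 25.7 CPM in young and at 64.4 and 57.4 CPM in old cells of I79 and I10. It rose by a log2 of 1.29 (2.44-fold, SE 0.12, adjusted p 0.0053). Its partner TAP2 stood at 23.5 and 24.7 CPM in young and at 23.8 and 19.95 CPM in old cells, with overlapping groups and a log2 change of -0.15 (SE 0.15; adjusted p 0.478). The TPM ratio of TAP1 to TAP2 was therefore 2.46 and 2.48 in young and 6.35 and 6.53 in old cells. Protein-coding transcripts made up 51.8% and 48.0% of TAP1 TPM in young and 55.4% and 62.3% in old cells. For TAP2 they made up 100%, so on coding transcripts alone the ratio is lower in every column. The difference between the partners was not itself tested.

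The immunoproteasome subunits did not pass the test. PSMB8 stood at 26.1 and 24.3 CPM in young and at 29.6 and 26.4 CPM in old cells of I79 and I10, a log2 change of 0.15 (SE 0.12; adjusted p 0.383). PSMB9 stood at 6.27 and 6.26 CPM in young and at 9.38 and 6.25 CPM in old cells, so that only I79 old was higher (log2 fold change 0.29, SE 0.23, adjusted p 0.381). Against its standard counterpart PSMB5, PSMB8 had a TPM ratio of 0.185 and 0.174 in young and 0.233 and 0.164 in old cells. PSMB9 against PSMB6 gave 0.0755 and 0.0757 in young and 0.171 and 0.083 in old cells. PSMB6 itself was lower in old cells, at 243 and 221 TPM in young and 130 and 163 TPM in old. PSMB9 was at 18.4 and 16.7 TPM in young and 22.2 and 13.5 TPM in old cells, so much of the ratio came from PSMB6.

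**Figure D2:**
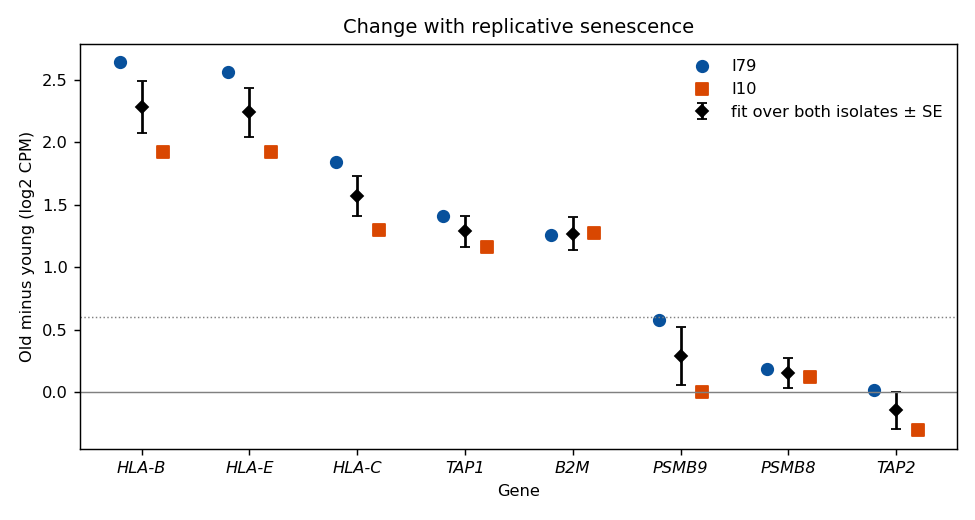
Old minus young difference (log2 CPM) of the 8 tested class I genes, with the fit over both isolates (diamonds, bars are SE) and the difference within I79 (circles) and I10 (squares); the dotted line marks 0.6. HLA-B, HLA-E, HLA-C, TAP1 and B2M lie above the line in both isolates, and PSMB8, PSMB9 and TAP2 lie below it.

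The isolates differed in the size of the change. The difference was over 0.6 in 5 of the 8 genes in I79, where 21.6% of tested genes passed this fold in the same direction, and in 5 of the 8 in I10, where 18.5% did. It was larger in I79 than in I10 for 7 of the 8, against 50.9% of all tested genes, the exception being B2M. In old cells 2 of the 8 genes differed by over 0.6 between isolates, HLA-B at -0.85 and HLA-E at -0.65 (I10 minus I79), where 17.0% of tested genes did. TAP2 and PSMB9 went in opposite directions in the isolates, as did 19.1% of tested genes. With 1 column per isolate and state, none of these differences could be tested.

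Genes of other cell types were followed beside these values. In bulk RNA, fewer cells of a type and less RNA per cell cannot be told apart. The 6 leukocyte markers summed to 21.8 and 23.6 CPM in young and to 158 and 84.9 CPM in old cells of I79 and I10, nearly all from CD68, a lysosomal protein also made by fibroblasts (335 and 445 counts in young, 2908 and 1529 in old). The defining markers were at or near 0, with CD3E and ITGAM at 0 counts and PTPRC at 4 counts or fewer in each column. The 3 listed endothelial markers summed to 0.64 and 0.365 CPM in young and to 7.22 and 2.54 CPM in old cells, with VWF at 7 counts in each young column and 52 and 45 in old, KDR at 3 and 0 in young and 81 and 1 in old, and CDH5 at 0 in all 4. The 4 epithelial markers summed to 80.1 and 83.9 CPM in young and 49.6 and 51.6 CPM in old cells, nearly all from KRT18 and KRT8. KRT18 had 856 and 1121 counts in young and 319 and 514 in old, and was called lower. KRT8 had 387 and 477 in young and 588 and 413 in old, and was not called. EPCAM had at most 9 counts and CDH1 at most 3. The part of these markers in the class I values was not tested. Class II genes, which professional antigen-presenting cells express, stayed low: 3 of 7 passed the filter, 0 were called (1 with an unadjusted p under 0.05), and HLA-DRA had at most 1 count.

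The rest of the class I pathway was read from a list of 48 genes, of which 44 were tested, 3 called higher and 1 lower. Over all tested genes 9.57% were called and 5.75% were called higher, shares much like those of this list. The higher ones were MICA, MR1 and FCGRT, all relatives of the class I heavy chains. MICA, a stress ligand of the NKG2D receptor, rose by 1.34 on the log2 scale (adjusted p 0.00592), from 14.3 and 16.4 CPM to 32.7 and 45.6 CPM in I79 and I10. MR1, which presents vitamin metabolites, rose by 1.43 (adjusted p 0.00917), and FCGRT, the neonatal Fc receptor chain that also pairs with the light chain, rose by 1.13 (adjusted p 0.00939) but was not called without the isolate covariate (1.16). PSME3, a proteasome activator subunit of the nucleus, fell by 1.03 (adjusted p 0.0053), from 125 CPM in both isolates to 59.8 and 62.7 CPM.

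By edgeR 0 of the 5 peptide loading genes and 0 of the 3 trimming genes were called, with 1 of each at an unadjusted p under 0.05, while DESeq2 called TAPBP. TAPBP, which bridges the transporter and the heavy chain, had a log2 fold change of 0.73 (edgeR adjusted p 0.0166, DESeq2 adjusted p 0.00176) and ERAP1, the main trimming peptidase, one of 0.66 (adjusted p 0.0122). PSMB10, the other immunoproteasome catalytic subunit, had 0.59 (adjusted p 0.0368) and PSME1, a subunit of the interferon-inducible activator, 0.45 (adjusted p 0.0265). The standard subunits PSMB5, PSMB6 and PSMB7 were not called, with values of 0.06, -0.48 and -0.02.

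Of the 14 regulators, 13 were tested and 0 called by edgeR or DESeq2, although 9 had an unadjusted p under 0.05. NLRC5, the class I transactivator, had a log2 fold change of -0.50 (adjusted p 0.0775) and its partner RFX5 one of -0.79 (adjusted p 0.0113). IRF1, which acts downstream of interferon, had 0.45 (adjusted p 0.0617). The gene for interferon beta, IFNB1, was at 0 counts in all 4 columns. Among 30 interferon response genes, 23 were tested, with 1 called higher (CXCL10, 6.13, adjusted p 0.00461) and 1 lower (IFIT1, -1.80, adjusted p 0.00477). Over all tested genes 9.57% were called. CXCL10, an interferon-induced chemokine, rested mainly on I79, where it went from 3 to 351 counts (log2 difference 5.98), against 1 to 18 counts in I10 (2.75), so that the fitted value exceeded both. It was not called without the isolate covariate (6.35). DESeq2 also called IFITM1 (log2 fold change by edgeR 1.03) and OAS3 (-1.45). The median log2 fold change of the 23 was -0.24.

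Promoter sequences are shown for genes that rose together (HLA-B, HLA-C, B2M and TAP1) and for PSMB9, which starts beside TAP1 on the other strand and did not pass the test. RefSeq windows on GRCh38.p14, a later build than that of the count tables, matched 8 of the 9 genes with 10 annotated starts, and HLA-E had none. Each run below is the 250 bases before the annotated start, 5′ to 3′ on the strand of the gene. Capitals mark matches, on either strand, to 4 short motifs: AANNGAAA (like sites of interferon regulatory factors), GGGNNNNNCC (like NF-kB sites), CCAAT (bound by NFY) and TGACGC (like cyclic AMP response elements). Matches of different motifs can touch or overlap, as in HLA-C.
HLA-B (chr6:31357180-31357429, minus strand): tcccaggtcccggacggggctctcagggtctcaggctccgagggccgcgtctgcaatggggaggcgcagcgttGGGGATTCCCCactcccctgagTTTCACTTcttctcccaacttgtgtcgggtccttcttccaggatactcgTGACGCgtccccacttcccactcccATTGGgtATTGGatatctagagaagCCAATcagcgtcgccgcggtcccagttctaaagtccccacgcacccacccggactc
HLA-C (chr6:31272093-31272342, minus strand): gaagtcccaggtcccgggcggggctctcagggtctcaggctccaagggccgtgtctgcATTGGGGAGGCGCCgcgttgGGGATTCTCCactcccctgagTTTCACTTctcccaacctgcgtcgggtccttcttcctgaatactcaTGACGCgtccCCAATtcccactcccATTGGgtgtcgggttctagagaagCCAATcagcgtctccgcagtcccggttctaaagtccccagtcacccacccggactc
B2M (chr15:44711267-44711516, plus strand): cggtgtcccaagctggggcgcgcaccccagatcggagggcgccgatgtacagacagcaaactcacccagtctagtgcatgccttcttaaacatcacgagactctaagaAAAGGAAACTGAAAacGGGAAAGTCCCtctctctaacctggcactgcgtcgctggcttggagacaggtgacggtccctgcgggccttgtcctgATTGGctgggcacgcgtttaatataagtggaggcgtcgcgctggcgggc
TAP1 (chr6:32853705-32853954, minus strand): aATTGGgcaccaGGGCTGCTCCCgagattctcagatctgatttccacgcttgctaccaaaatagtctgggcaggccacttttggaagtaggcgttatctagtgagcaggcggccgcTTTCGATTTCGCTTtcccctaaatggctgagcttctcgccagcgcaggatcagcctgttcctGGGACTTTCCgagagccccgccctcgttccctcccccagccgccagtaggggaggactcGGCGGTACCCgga
PSMB9 (chr6:32853942-32854191, plus strand): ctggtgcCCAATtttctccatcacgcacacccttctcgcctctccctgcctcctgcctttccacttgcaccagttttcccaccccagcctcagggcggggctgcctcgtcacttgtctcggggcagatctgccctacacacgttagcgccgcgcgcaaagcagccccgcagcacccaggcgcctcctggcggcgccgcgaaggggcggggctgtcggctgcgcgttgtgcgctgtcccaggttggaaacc

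HLA-B and HLA-C held all 4 motifs. The AANNGAAA match began 155 bases before the start in HLA-B and 151 in HLA-C, and the TGACGC match 106 and 105 bases before it. B2M and TAP1 held 3 of the 4, without TGACGC. These windows of TAP1 and PSMB9 have starts 487 bases apart and head to head. They share 13 bases, which include the CCAAT match, the only match in the PSMB9 window. The AANNGAAA and GGGNNNNNCC matches of this TAP1 window also lie between these starts. They are therefore upstream of PSMB9 as well, though none is wholly within its window. So the PSMB9 window does not show that such letters are missing upstream of PSMB9. A further TAP1 start held only GGGNNNNNCC. The 2 windows of PSMB8 held none, and that of TAP2, which did not pass the test either, held 3. Over all 35116 windows of the same length, AANNGAAA was found in 20.3%, GGGNNNNNCC in 54.4%, CCAAT in 32.0% and TGACGC in 7.67%, so single matches are common. A match is a description of letters and not of a bound site.

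The HMGB2 knockdown asks how IMR90 transcripts differ when this chromatin protein is reduced by siRNA. No control siRNA is named for WT, so loss of HMGB2 and siRNA treatment itself cannot be told apart. None of the class I genes was called. Only 4 of the 9 could be tested (HLA-B, HLA-C, B2M and TAP2), 0 of them were called and 0 had an unadjusted p under 0.05, where 5.2% of 15338 tested genes were called. DESeq2 called 0 of the 3 for which it gave an adjusted p, and gave none for TAP2.

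HLA-C was the most abundant of them in counts, at 562 and 508 CPM in the WT libraries against 459 and 550 CPM in HMGB2 KD. The groups overlapped, with means of 535 ± 37.8 and 504 ± 64.3 CPM (SD, n = 2) and the log2 change was -0.09 (SE 0.15; adjusted p 0.796 by edgeR). HLA-B stood at 355 and 331 CPM in the WT libraries against 272 and 291 CPM in HMGB2 KD. Its groups did not overlap, as in 53.8% of tested genes, and its log2 change of -0.28 was not called (SE 0.14, adjusted p 0.227). B2M stood at 92.2 and 98.5 CPM in the WT libraries and at 107 and 73.4 CPM in HMGB2 KD, overlapping (log2 fold change -0.08, SE 0.16, adjusted p 0.828). The B2M value was decided by HMGB2 KD replicate 2: without it the log2 fold change was 0.17.

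TAP2 had only 22 and 15 counts in WT and 37 and 6 in HMGB2 KD, too few to give a direction (log2 change 0.14, SE 0.75, adjusted p 0.943).

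**Figure D3:**
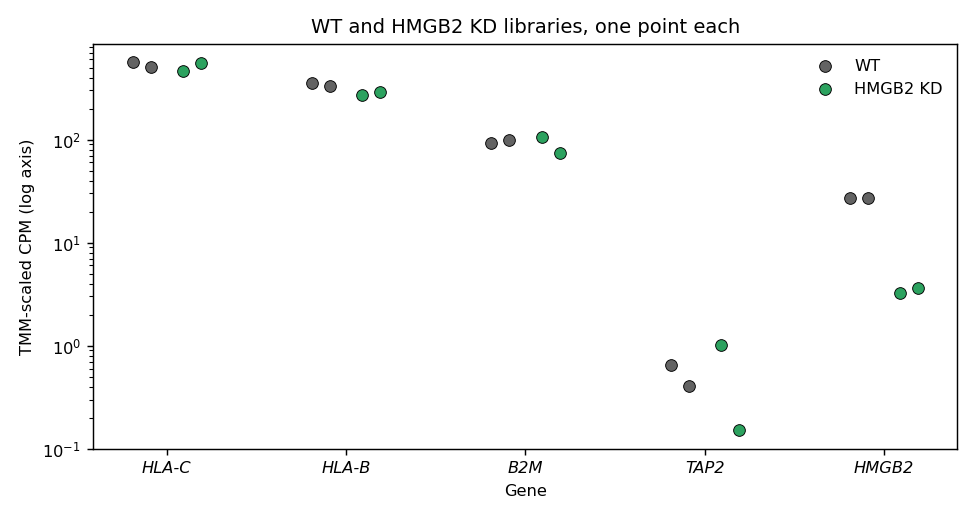
TMM-scaled CPM (log axis) of the 4 testable class I genes and the targeted gene HMGB2 in WT (grey) and HMGB2 KD (green), 1 point per library and no error bars. HMGB2 separates the groups by far, whereas HLA-C, B2M and TAP2 overlap between them.

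The other 5 class I genes were at or near 0 in every WT and HMGB2 KD library. HLA-E and PSMB9 were listed at 0 in all 4 libraries, and TAP1 and HLA-F at 0 in 3 of the 4 with 1 and 2 counts in WT replicate 2. PSMB8 had at most 1 count per library. The same genes other than HLA-F were well covered in the young and old columns, and PSME1, a widely expressed proteasome activator subunit encoded outside the MHC, was also listed at 0 in all 4 libraries. No fold is given for them.

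The low values followed position in the genome, in a check made after the data were seen. From HLA-F to HLA-DPB1 (chromosome 6, 29690552 to 33057473), 46 protein-coding genes had at least 200 counts in each young and old column. Of these, 24 (52.2%) had fewer than 20 counts over the 4 WT and HMGB2 KD libraries, and 11 had 0. Elsewhere on chromosome 6 it was 11 of 354 (3.11%), and over all other protein-coding genes 194 of 7928 (2.45%). The ICM tables held 7770 reads of HLA-E and 1968 of TAP1, summed over 2 libraries. The cause was not tested, and these tables gave no usable measure of HLA-E, HLA-F, TAP1, PSMB8 or PSMB9. TAP2 was low as well, with 80 counts over the 4 libraries against 1640 over the 4 young and old columns. Over shared genes the log2 ratio of WT to I79 young was 1.53 for HLA-B, 3.46 for HLA-C and -2.3 for B2M. Whether the counting also affected the 4 genes tested in the knockdown was not tested.

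**Figure D4:**
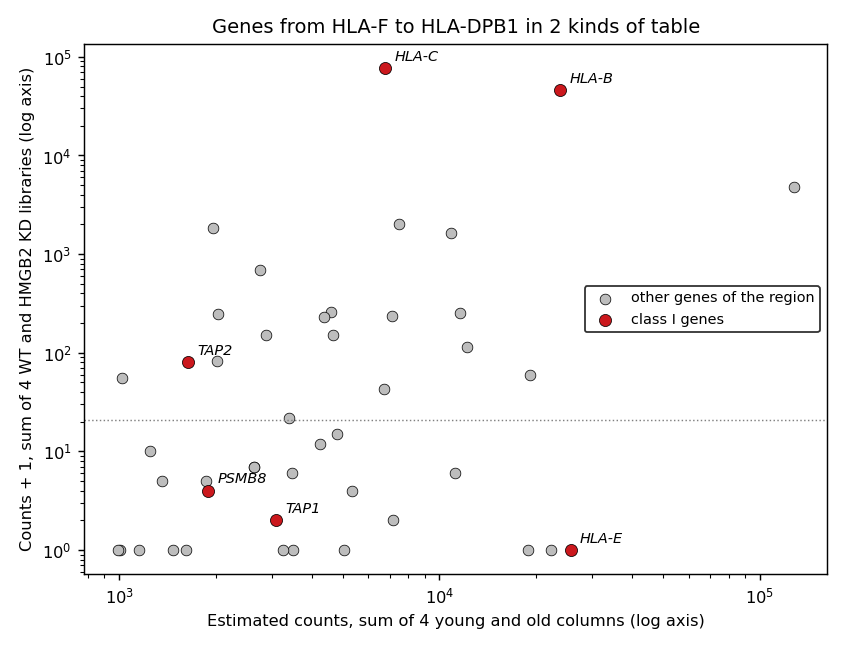
Each point is a protein-coding gene between HLA-F and HLA-DPB1 with at least 200 counts in every young and old column; x, summed estimated counts of the 4 young and old columns; y, summed counts + 1 of the 4 WT and HMGB2 KD libraries (both log axes; dotted line at 20 counts). HLA-B and HLA-C lie near the top and HLA-E at 0 counts, 1 gene is not shown, and 24 of the 46 genes lie under the line.

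Over all genes tested in the knockdown 5.2% were called. In the pathway list 42 of 48 genes were tested, with 1 called higher and 0 lower. This was ULBP2, a stress ligand of NKG2D, which rose by 1.07 on the log2 scale (adjusted p 0.00342). It had 202 and 168 counts in WT and 422 and 411 in HMGB2 KD. Of 24 interferon response genes tested, 3 were called higher and 1 lower. The 24 had no common direction, with 12 log2 fold changes above 0 and a median of 0.0001. GBP1 and GBP2, interferon-induced guanylate-binding proteins, rose by 1.06 (adjusted p 0.000202) and 0.80 (adjusted p 0.00584), and USP18, which dampens interferon signalling, rose by 0.73 (adjusted p 0.00449). IFIT1 fell by 1.23 (adjusted p 0.0053). GBP1 kept its call when any 1 library was left out. The call of ULBP2 was lost without WT replicate 2 (0.88), HMGB2 KD replicate 1 (0.98) or HMGB2 KD replicate 2 (1.15), and that of GBP2 without WT replicate 1 (0.58), HMGB2 KD replicate 1 (0.78) or HMGB2 KD replicate 2 (0.81). USP18 was not called without WT replicate 1 (0.63) or HMGB2 KD replicate 2 (0.68), nor IFIT1 without HMGB2 KD replicate 2 (-0.99). Of the class II genes 3 were tested and 0 called, 1 with an unadjusted p under 0.05.

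ICM-treated I79 cells address whether the compound gives a senescent expression state. Their tables were counted in another way than those of I79 young, so that counting and treatment cannot be told apart and no test was made. Over 15417 shared genes, 5 of the 9 class I genes stood more than 0.6 on the log2 scale above I79 young (HLA-C, HLA-E, HLA-F, TAP1 and TAP2), as did 32.1% of all shared genes. For I79 old against I79 young it was 6 of 9, with 22.9% of shared genes. These 6 include HLA-F, from 0 counts in I79 young and 5 in I79 old. For I10 young it was 1 of 9 (HLA-F, from 1 count), with 6.81%. For the WT libraries, yet another kind of table and not labelled with ICM, it was 2 of 9, with 20.7%. But in WT 6 of the 9 stood more than 0.6 below I79 young, with a median log2 ratio of -5.38 over the 9. Several of these genes were at or near 0 in that kind of table. The WT count is therefore no baseline for the ICM count. Values here are on the scale of the shared genes and differ slightly from those above.

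TAP2 was high in the ICM libraries and not in old cells. It stood at 107.5 and 105.6 CPM in the ICM libraries, at 25.6 CPM in I79 young and at 26.3 CPM in I79 old. The log2 ratio to I79 young was 2.05 for ICM and 0.04 for I79 old. TAP1 stood at 82.3 and 79.9 CPM in the ICM libraries against 26.4 CPM in I79 young and 71.3 CPM in I79 old, with log2 ratios of 1.62 and 1.43. With only the ICM side cut to coding region and noncoding reads, the ratio was 2.09 for TAP2 and 2.22 for TAP1. I79 young kept all its reads, here and in every such ratio below, so the sides are not alike. The coding region held 92.1% and 93.4% of TAP1 reads and 63.7% and 61.7% of TAP2 reads in the ICM libraries.

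HLA-B ran the other way, at 180 and 190.5 CPM in the ICM libraries, 123 CPM in I79 young and 782 CPM in I79 old. Its log2 ratio to I79 young was 0.58 for ICM and 2.66 for I79 old. With only the ICM side cut to coding region and noncoding reads, the ICM ratio of HLA-B was 1.0. HLA-E stood at 309 and 335 CPM with ICM, 132 CPM in I79 young and 794 CPM in I79 old, ratios of 1.28 and 2.58. B2M stood at 688 and 699 CPM with ICM, 489 CPM in I79 young and 1191 CPM in I79 old, ratios of 0.50 and 1.28. With only the ICM side cut in the same way, the ICM ratio was 1.06 for HLA-E and 0.27 for B2M.

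HLA-C had ratios of 2.10 in ICM and 1.86 in old cells. With only the ICM side cut to coding region and noncoding reads, the ICM ratio was 2.35. HLA-C stood at 209 and 223 CPM in the ICM libraries, 50.4 CPM in I79 young and 183 CPM in I79 old. Yet the WT libraries, at a mean of 558 CPM, exceeded I79 young by 3.46, and set against WT the ICM ratio of HLA-C turned to -1.37. HLA-B in WT likewise stood 1.53 above I79 young, and B2M 2.30 below it (log2 ratio -2.30).

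PSMB8 and PSMB9 stood within 0.6 of I79 young in the ICM libraries. PSMB8 stood at 26.4 and 29.6 CPM against 28.5 CPM (log2 ratio -0.03), and PSMB9 at 8.61 and 8.47 CPM against 6.85 CPM (log2 ratio 0.31). With only the ICM side cut to coding region and noncoding reads, the ratios were 0.43 and 0.55. HLA-F had 63.7 and 61.0 reads in the ICM libraries and 0 in I79 young. Against the limit of 3 counts that a count of 0 allows in I79 young (0.21 CPM), the mean of 5.20 CPM was 24.8-fold higher. HLA-G, with 202 and 141 reads against 0, stood 67.0-fold above the same limit. The limit covers counting error only and not the different way of counting, so these folds are not lower bounds for a change with treatment. Fractional reads show that the ICM tables shared reads between features, and how near-identical heavy chains were split is not given in the sources used here.

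**Figure D5:**
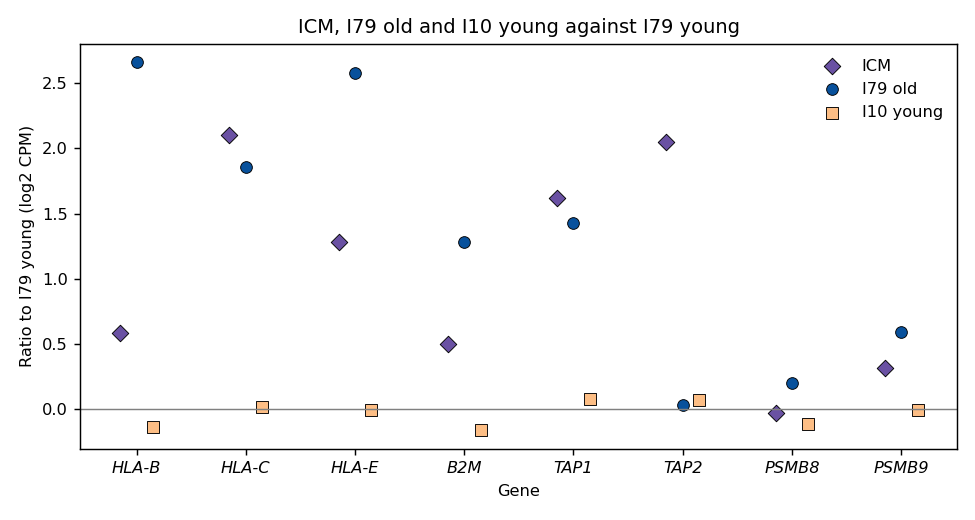
Log2 ratio of CPM to I79 young over shared genes for the mean of the 2 ICM libraries (diamonds), I79 old (circles) and I10 young (squares), with no error bars; HLA-F is left out. ICM stands above I79 old for TAP2 (2.05 and 0.04) and below it for HLA-B (0.58 and 2.66), and I10 young lies near 0 throughout.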

How the data were processed

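RNA-seq tables of 7 groups of IMR90 cells (14 samples) were used. For young and old cells the authors deposited estimated counts and TPM per transcript, 1 table per group. For ICM they deposited estimated counts per gene and transcript region, and for WT and HMGB2 KD raw counts per gene symbol. The submitters' processing notes name STAR 2.6.0c, featureCounts, DESeq2 and GRCh37 without saying which table each made, and the WT and HMGB2 KD tables end in rows of htseq-count form. Those summary rows (between 16.9% and 18.0% of the totals) were left out.

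Transcripts were summed per gene through GENCODE 44 lifted to GRCh37, which matched 97.7% of transcripts and between 97.2% and 97.4% of reads, and rounded. Differences were tested over all genes with edgeR 4.0.16 (R 4.3.3) by the quasi-likelihood test, with TMM scaling and filterByExpr, and p-values were adjusted by Benjamini-Hochberg. The SE is the log2 fold change over the square root of F. Old against young had isolate as a covariate and 1 residual degree of freedom, and HMGB2 KD against WT had no covariate. Log2 ratios without a test used TMM-scaled CPM with a prior count of 2, and counting intervals are exact 95% (Clopper-Pearson). Alternatives included DESeq2 1.42.0, other scalings and filters, and libraries left out. Replicates were not duplicates: the chi-square per degree of freedom was 24.7 in WT, 37.6 in HMGB2 KD and 2.10 in ICM. In simulated tables where 200 genes differed by a log2 of 1.5, 77.5% were recovered with 1 false call in the knockdown design (15023 genes), and 71.5% with 0 false calls in the old against young design (14734 genes).

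Genes named are the 9 members, HMGB2, called genes of fixed lists (pathway, interferon response, class II), and, by the rule, genes most alike in pattern. The latter are not given, since 5 of the 9 members had no usable measure in the WT and HMGB2 KD tables. Some genes that these rules name, and the sum of heavy chains planned as an alternative, are not reported here, and list counts leave those genes out. Pathway and interferon genes named without a call, and genes of the MHC check, were chosen after their values were seen. The members and lists were chosen with earlier results of these data known.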

Additional observations from a re-analysis of the deposited data

Results flagged for a closer look

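TAP2 and PSMB9 were picked out because the isolates moved in opposite directions from young to old. For TAP2 the log2 difference was 0.02 in I79 (95% counting interval -0.19 to 0.22) and -0.31 in I10 (-0.51 to -0.11), so the isolates differed by 0.32. For PSMB9 it was 0.57 in I79 (0.22 to 0.95) and -0.003 in I10 (-0.39 to 0.38), a gap of 0.58. With 1 column per isolate and state, the difference between isolates was not tested. The I79 value of TAP2 and the I10 value of PSMB9 have intervals that include 0.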

How the results depend on the processing

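For old against young, HLA-B, HLA-C, HLA-E and TAP1 remained called under all alternatives with a test (size factors, plain totals, DESeq2, no low-count filter, no isolate covariate, protein-coding transcripts, TPM-scaled counts, adjusted p under 0.05). B2M lost its call on protein-coding transcripts only (1.90, adjusted p 0.055), which hold under 1 in 100 of its reads. Over these alternatives and single isolates the log2 fold change ran from 1.92 to 2.64 for HLA-B, from 1.92 to 2.56 for HLA-E, from 1.30 to 1.84 for HLA-C and from 1.07 to 1.48 for TAP1. Plain totals moved the median of all genes by -0.21, turned PSMB8 to -0.060 and gave 3130 calls, 2111 of them lower, with 32.6% higher against 60.1% before. No filter gave 4251 calls (2209 higher, 2042 lower) and an adjusted p under 0.05 gave 3860 (2037 higher, 1823 lower).

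For HMGB2 KD against WT, 0 class I genes were called under any alternative. The replicate numbers correlated at 0.124 with 2 pairs, too few to show pairing. The replicate block gave 1243 calls (685 higher, 558 lower) and turned TAP2 to -0.16. Plain totals moved the higher share of calls from 55.0% to 44.3%, and an adjusted p under 0.05 gave 659 higher. Leaving out 1 library gave between 312 and 999 calls (174 to 544 higher, 138 to 455 lower), the lowest without HMGB2 KD replicate 2. Log2 values then ran from -1.78 (without HMGB2 KD replicate 1) to 0.96 for TAP2, from -0.22 to 0.029 (without HMGB2 KD replicate 1) for HLA-C, from -0.39 to 0.17 (without HMGB2 KD replicate 2) for B2M, and, lowest without WT replicate 2, from -0.035 to 0.22 for MICA and from -0.15 to 0.57 for CXCL10.

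For ICM, WT as control turned HLA-C to -1.37. A prior count of 0.5 put 1 class I gene past 0.6 between the young isolates. This was HLA-F, at 0 counts in I79 young and 1 in I10 young.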
